A study of Homo sapiens with 10 samples.

Results

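The Notch genes examined here were 4 receptors (NOTCH1, NOTCH2, NOTCH3 and NOTCH4), 4 ligands (JAG1, JAG2, DLL1 and DLL4) and 2 target genes (HES1 and HEY1), 10 of the 20033 protein-coding genes of GENCODE release 44. They were chosen by name as parts of 1 pathway. For each gene, every peak over the gene body and 50 kb to each side was taken, which is called its window here. The peaks came from ChIP-seq of histone H3 acetylated at lysine 27 (H3K27ac) or lysine 18 (H3K18ac) in the cell lines C4-2B and C4-2BER. C4-2B is a human prostate adenocarcinoma line. C4-2BER was derived from it by continuous exposure to enzalutamide, a prostate cancer drug, and is labeled as neuroendocrine-like. It is 1 derived line, so the lines also differ by their time in culture.

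Each mark was profiled in 2 libraries per line with 1 input per line, and the authors pooled the libraries of a line and mark into 1 peak list. Every value below is therefore 1 number per line and mark, without replicate error, and no difference between the lines could be tested. The H3K27ac lists held 72971 peaks in C4-2BER against 68034 in C4-2B, and the H3K18ac lists held 197948 and 198451. The lists give no read counts, so the depth is unknown, and a place without a peak may still carry the mark. The value of a peak is its fold enrichment, the ratio of ChIP signal to local background averaged over the peak. Since each list is scaled to its own background, a ratio between lines also carries differences in background. A lower fold in the pooled cells cannot be told apart from fewer cells with the mark.

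Of 8 luminal prostate genes, among them KLK3 and HOXB13, all had an H3K27ac promoter peak in both lines. Fold enrichment at HOXB13 was 19.8 in C4-2BER against 23.5 in C4-2B. Of 8 neuroendocrine genes, CHGA, INSM1 and NCAM1 had no H3K27ac promoter peak in either line, and ENO2 had 14.3 in C4-2BER against 4.00 in C4-2B. Defining neuroendocrine markers thus lacked H3K27ac promoter peaks in the line labeled neuroendocrine-like, so the lines are called by their names below.

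Notch receptors are membrane proteins that are cut when a ligand of the Jagged or Delta-like families on a neighboring cell binds them. The freed intracellular part enters the nucleus, joins the DNA-binding protein RBPJ and switches on target genes such as HES1 and HEY1. The proteins of those targets are repressors, and in developing nervous tissue and lung they hold back proneural factors. Acetylated H3K27 and H3K18 mark active promoters and enhancers.

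Sequences of a few of the promoters and regions described below are shown first. All are GRCh38, written 5′ to 3′, with the core motif of RBPJ (TGGGAA, or TTCCCA on the other strand) in capitals. The HES1 promoter is shown because HES1 is the main target, and the JAG1 promoter because its H3K27ac ratio between the lines was the lowest of the 10 genes. Both are the 250 bases before the RefSeq start site, on the strand of the gene. RefSeq promoter sequences matched 8 of the 10 genes. DLL1 and HEY1 had no entry.
HES1 promoter, chr3:194135898-194136147, plus strand: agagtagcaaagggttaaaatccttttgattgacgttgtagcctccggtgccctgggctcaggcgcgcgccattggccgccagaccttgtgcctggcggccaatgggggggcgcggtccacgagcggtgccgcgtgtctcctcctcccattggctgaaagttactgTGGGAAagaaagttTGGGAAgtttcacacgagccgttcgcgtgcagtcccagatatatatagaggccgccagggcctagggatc
JAG1 promoter, chr20:10674000-10674249, minus strand: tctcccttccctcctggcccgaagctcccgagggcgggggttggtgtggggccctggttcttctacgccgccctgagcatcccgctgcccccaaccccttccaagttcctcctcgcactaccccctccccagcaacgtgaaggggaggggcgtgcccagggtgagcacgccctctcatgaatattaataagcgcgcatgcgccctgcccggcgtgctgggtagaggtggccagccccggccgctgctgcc
The next sequence is a whole H3K27ac peak upstream of JAG1 that was found in C4-2B only, and the following pair shows the central 300 bases of regions that were stronger in C4-2BER, in intron 5 of NOTCH2 and downstream of HES1. These are from the plus strand of the genome.
JAG1 upstream region, chr20:10686498-10686792: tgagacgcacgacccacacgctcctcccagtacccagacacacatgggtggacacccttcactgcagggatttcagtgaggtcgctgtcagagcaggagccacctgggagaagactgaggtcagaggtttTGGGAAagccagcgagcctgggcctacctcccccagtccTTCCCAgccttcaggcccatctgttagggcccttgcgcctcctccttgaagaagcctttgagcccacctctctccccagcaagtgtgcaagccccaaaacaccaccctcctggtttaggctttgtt
NOTCH2 intron region, chr1:119973546-119973845: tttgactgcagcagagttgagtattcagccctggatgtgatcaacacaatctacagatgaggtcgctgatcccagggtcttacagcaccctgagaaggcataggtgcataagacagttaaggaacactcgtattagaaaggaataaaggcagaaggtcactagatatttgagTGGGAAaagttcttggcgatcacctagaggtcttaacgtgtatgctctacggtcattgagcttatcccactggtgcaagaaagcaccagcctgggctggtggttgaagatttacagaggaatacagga
HES1 downstream region, chr3:194166778-194167077: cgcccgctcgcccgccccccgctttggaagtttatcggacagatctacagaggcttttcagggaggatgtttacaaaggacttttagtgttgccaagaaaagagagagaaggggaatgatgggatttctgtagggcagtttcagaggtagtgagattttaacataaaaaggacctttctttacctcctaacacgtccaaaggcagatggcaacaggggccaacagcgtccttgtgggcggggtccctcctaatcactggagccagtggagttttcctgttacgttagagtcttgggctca
The HES1 promoter held 2 RBPJ cores, starting 84 and 70 bases before the start site. The other 7 promoters with a sequence held 0 in these windows. The JAG1 upstream region held 2, in opposite orientation, the NOTCH2 intron region 1 and the HES1 downstream region 0. By comparison, 24.0% of 35116 RefSeq promoters (300 bases each, from 250 before to 50 after the start) and 23.9% of 89875 H3K27ac region centers of 300 bases held at least 1 core on either strand. A match describes the letters only.

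Promoters were compared first, as 2000 bp upstream to 500 bp downstream of every annotated start site, with the highest fold enrichment of an overlapping peak as the value. A promoter was called increased in C4-2BER with a ratio of at least 2 or a peak in C4-2BER only, and decreased in the mirrored case. Under this rule all 10 Notch genes had promoter peaks of both marks in both lines, but the values of NOTCH4 came from an alternative start site under peaks that cover the promoter of GPSM3, and those of DLL1 from one under a peak over a promoter of FAM120B. For H3K27ac, 0 of 10 were increased and 1, JAG1, was decreased, against 4.56% and 10.8% of the 15346 protein-coding genes with a promoter peak. For H3K18ac, 0 were increased and 0 decreased, against 2.15% and 5.9% of 17828 genes. The H3K27ac value was lower in C4-2BER for 10 of 10 genes, with a median log2 ratio of -0.38. At canonical start sites alone, 9 genes had an H3K27ac peak in both lines and 8 of them were lower, DLL1 being higher (log2 0.17). The median over all genes was -0.50, and 87.8% of them were lower. For H3K18ac, 9 of 10 Notch genes were lower, with a median of -0.15 against -0.33 over all genes. A robust line fitted over regions shared by the lines, which removes the average shift at each strength, moved the median over all genes to -0.17 for H3K27ac and -0.28 for H3K18ac. After it, 7 of 10 Notch genes were lower for each mark, against 70.0% and 79.3% of all genes. The lower H3K27ac at Notch promoters thus lay close to what all promoters showed.

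**Figure D1:**
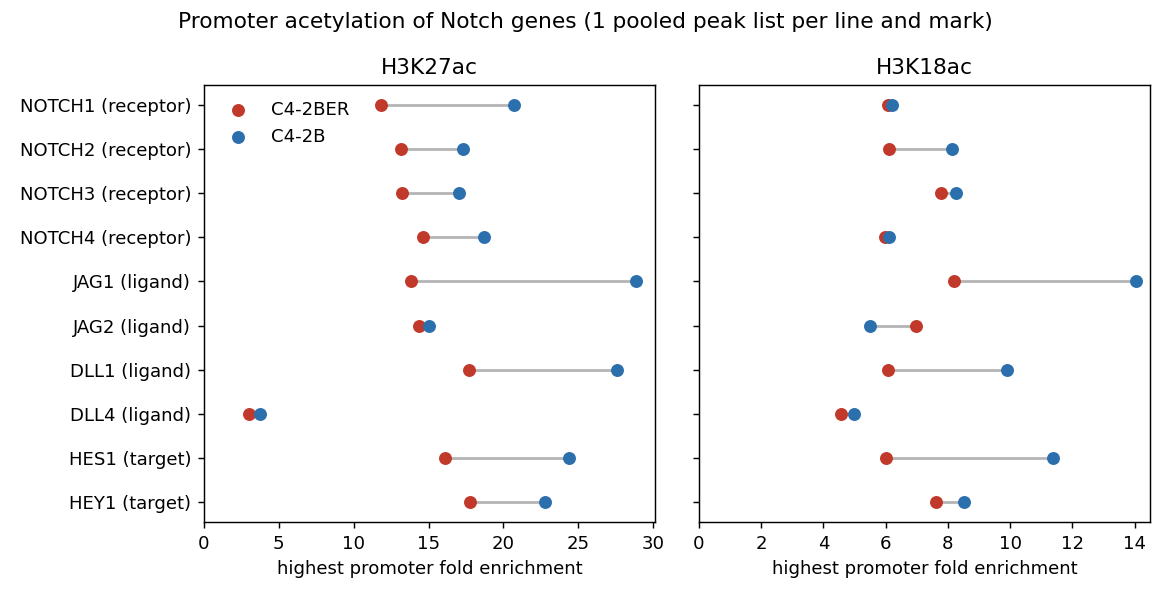
Highest fold enrichment of a promoter peak (x axis, ratio to local background) for each Notch gene, H3K27ac on the left and H3K18ac on the right, with 1 point per pooled list and no error bars because replicates were pooled. The C4-2B point lies to the right of the C4-2BER point for 10 of 10 genes in H3K27ac and for 9 of 10 in H3K18ac, with JAG2 as the exception. At canonical start sites DLL1 is higher in C4-2BER in H3K27ac and NOTCH4 has no H3K27ac peak. After rescaling over shared regions 7 of 10 were lower in each mark.

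**Figure D2:**
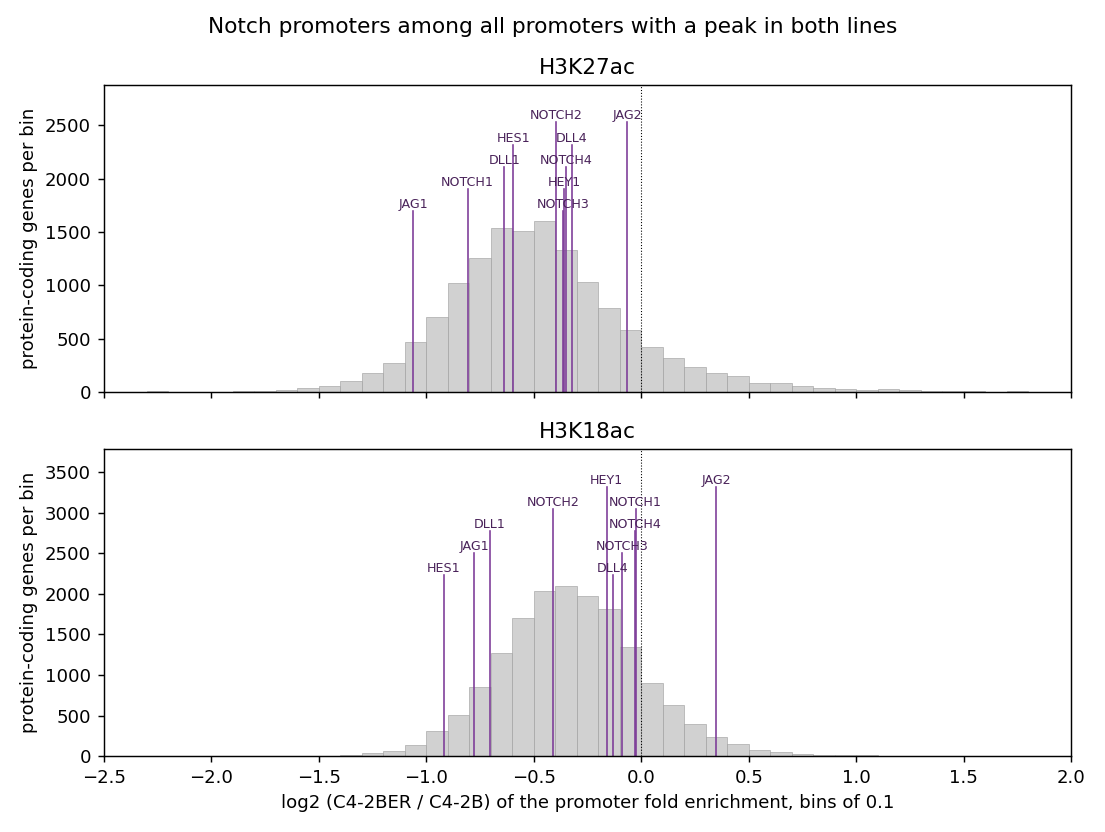
Number of protein-coding genes per bin of 0.1 in the log2 ratio (C4-2BER over C4-2B) of promoter fold enrichment, with each Notch gene as a labeled line. For H3K27ac, JAG1 lies at -1.06 and JAG2 at -0.07 around the median of -0.50 over all genes. For H3K18ac, HES1 lies at -0.92 and JAG2 at 0.35 around a median of -0.33. Rescaling over shared regions moved JAG2 to 0.27 and 0.40.

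Whole windows were compared next. Peaks of the lines that overlapped by at least 1 base were joined into regions, and a region was called by the same rule on its length-weighted mean fold. The 10 windows held 120 H3K27ac regions, of which 35 (29.2%) were increased in C4-2BER, 28 (23.3%) were decreased and 57 were neither. Over the 89877 regions of the genome the shares were 30.5% and 22.7%. The windows held 178 H3K18ac regions, of which 25 (14.0%) were increased and 55 (30.9%) decreased. Genome-wide these shares were 26.2% and 23.5% of 247646 regions. For H3K27ac the Notch windows were thus close to the genome, whereas for H3K18ac increased regions were less frequent and decreased ones more frequent than over the genome, as a description of these lists. With only peaks of a −log10 q-value of 5 or more kept, 9 of 52 H3K18ac regions were increased and 2 decreased. The genome's shares there were 34.2% and 12.7%. Increased regions thus remained less frequent than over the genome, whereas decreased ones turned to less frequent. Most called regions were weak. Of the called H3K27ac regions, 33 had a peak in C4-2BER only, with a median fold of 2.33 and a highest of 4.71, and 27 had a peak in C4-2B only, with a median of 2.42 and a highest of 4.13. The 60 regions with peaks in both lines had median folds of 4.29 in C4-2BER against 4.62 in C4-2B, and 44 of them were lower in C4-2BER. All 80 called H3K18ac regions, 25 and 55, had a peak in 1 line only, with folds up to 3.36 in C4-2BER against 3.61 in C4-2B. The 2 marks mostly coincided at H3K27ac regions, 113 of 120 of which overlapped an H3K18ac region. Both marks were increased at 7 H3K27ac regions and decreased at 10. The genome's shares for this overlap and for these joint calls were not computed. The counts are thus not shown to be particular to the Notch windows.

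By role, 39 of 88 H3K18ac regions in the receptor windows were decreased and 8 increased, where 29.5 and 13.9 would follow from GC content, that is, from the genome's shares applied within 10 groups of GC content. Of the 39, 12 lay in the NOTCH1 and 18 in the NOTCH3 window, whereas the NOTCH2 window held 6 increased and 2 decreased. In the ligand windows 13 of 55 were decreased and 6 increased, where 15.4 and 11.9 would follow. In the target windows 11 of 35 (31.4%) were increased and 3 decreased, where 11.0 and 6.31 would follow. The count of increased regions of the targets was thus close to its background.

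The length under peaks was larger in C4-2BER for 7 of 10 windows in H3K27ac and for 3 of 10 in H3K18ac, against 73.5% of 19028 and 52.0% of 19782 protein-coding genes with a peak in their window. Both target windows, HES1 and HEY1, were longer under peaks in C4-2BER in both marks. Among receptors and ligands, NOTCH2 was the only one longer in C4-2BER in H3K18ac. Several of these directions turned with stricter peaks. With a fold of at least 4, the C4-2BER and C4-2B lengths were 20796 and 20950 bp for HES1 in H3K27ac, 3055 and 3673 bp for HEY1 in H3K18ac, and 1390 and 1933 bp for NOTCH2 in H3K18ac. The H3K18ac length at that setting turned the other way for NOTCH4 (15477 and 13649 bp) and DLL1 (17672 and 13699 bp). With a −log10 q-value of 5 or more, lengths for JAG1 (7943 and 7360 bp) and DLL4 (49731 and 46566 bp) in H3K18ac and JAG2 in H3K27ac (31122 and 30072 bp) became larger in C4-2BER. In the full lists, the widest relative difference in C4-2BER was at NOTCH2 in both marks. In C4-2B it was at JAG1 for H3K27ac and at NOTCH1 for H3K18ac. Base composition moved with these lengths. Across the 10 windows, Spearman's rho between the GC content of the window and the log2 ratio of length under peaks was -0.56 for H3K27ac and -0.78 for H3K18ac (Pearson's r -0.58 and -0.73), as a description of 10 windows that share the same 4 lists. Increased H3K27ac regions of the windows had a median GC content of 50.6% and decreased ones 61.2%, and over the genome these were 49.6% and 55.2%. With the genome's shares applied in this way, the windows would hold 29.2 increased and 34.6 decreased H3K27ac regions, and 36.9 increased and 51.2 decreased H3K18ac regions. The part of base composition in the differences was not tested.

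**Figure D3:**
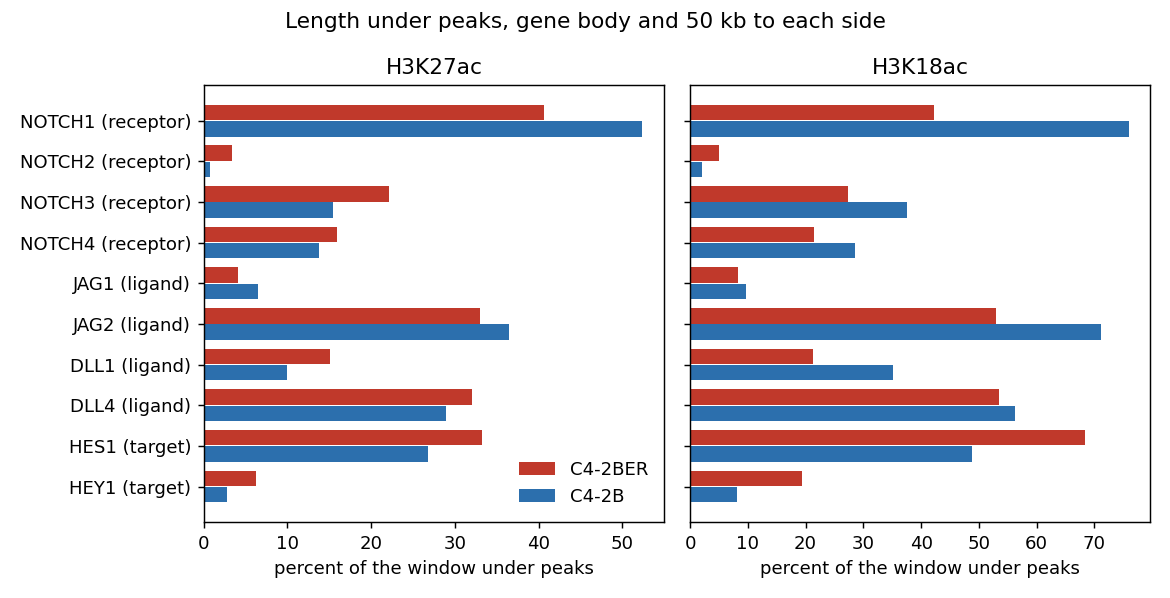
Percent of each window (gene body and 50 kb to each side) that lay under peaks, with 1 bar per line from the pooled lists, H3K27ac on the left and H3K18ac on the right. Bars of C4-2BER are longer for NOTCH2, HES1 and HEY1 in both marks, and bars of C4-2B for NOTCH1, JAG1 and JAG2 in both. DLL1, DLL4, NOTCH3 and NOTCH4 are longer in C4-2BER for H3K27ac and in C4-2B for H3K18ac. With a fold of at least 4, HES1 in H3K27ac and NOTCH2 and HEY1 in H3K18ac turned to C4-2B, and NOTCH3, NOTCH4 and DLL1 in H3K18ac to C4-2BER.

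NOTCH1, the receptor best known from T cell leukemia and from lateral inhibition, lies at chr9:136494433-136546048 on the minus strand (ENSG00000148400.13). Its H3K27ac promoter value was 11.8 in C4-2BER against 20.7 in C4-2B, a log2 ratio of -0.81 (-0.46 after rescaling). Over the whole joined region the H3K27ac folds were 10.6 and 13.9 (log2 -0.39), and the peaks behind the promoter values were 28259 and 19486 bp wide. A lower promoter ratio was seen in 19.7% of genes. Its H3K18ac values were nearly equal, 6.08 and 6.19. The peaks around the start site also reach over the promoter of the lncRNA gene NALT1. The H3K18ac peak was 33115 bp wide in C4-2BER against 50839 bp in C4-2B, where it ran 39440 bp into the gene. Over the window, 64178 bp lay under H3K18ac peaks in C4-2BER against 115025 bp in C4-2B, and 91.8% of genes had a higher ratio. For H3K27ac the lengths were 61759 and 79517 bp. They were nearly equal with a fold of at least 4 (42544 and 42686 bp) or a −log10 q-value of 5 or more (42830 and 43591 bp). Of 17 H3K18ac regions 12 were decreased and 0 increased, where 6.68 decreased would follow from GC content. All 12 had a peak in C4-2B only, with folds from 2.22 to 2.58. Of 24 H3K27ac regions 10 were decreased and 4 increased, where 8.44 and 4.31 would follow from GC content. The 4 increased ones were weak peaks in C4-2BER only, with folds from 2.09 to 2.62, and 3 of them overlapped a decreased H3K18ac region. Some of these regions lie at promoters of SEC16A, a neighboring gene of vesicle transport. Without regions at other genes' promoters, 7 of 10 H3K18ac regions were decreased.

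NOTCH2, a receptor with a broad role in bile duct, kidney and B cell development, lies at chr1:119911553-120100779 on the minus strand (ENSG00000134250.21). Its promoter values were 13.1 in C4-2BER against 17.3 in C4-2B for H3K27ac (log2 -0.39) and 6.12 and 8.14 for H3K18ac (log2 -0.41). The promoter peaks were narrow, 806 and 917 bp for H3K27ac. Away from the canonical promoter the H3K27ac order was the opposite. Of 11 H3K27ac regions 8 were increased and 0 decreased, where 3.7 increased would follow from GC content. All 8 had a peak in C4-2BER only, with folds from 2.15 to 4.17. The region with a fold of 2.52 lay at an annotated start site 145757 bp downstream of the canonical one. The weakest region overlapped an H3K18ac region found in C4-2B only. The length under H3K27ac peaks was 9816 bp in C4-2BER against 2088 bp in C4-2B, a ratio of 4.70, and 98.7% of genes had a lower ratio. For H3K18ac it was 14565 and 5933 bp, a ratio of 2.46, above 95.8% of genes. With a fold of at least 4 the H3K27ac lengths were 2153 and 1665 bp, and the H3K18ac order turned, with 1390 and 1933 bp.
Of the 8 increased regions, 4 lay in intron 5 and over exons 6 and 7. In intron 5, the 3 H3K27ac regions had folds of 3.04, 4.17 and 2.19 in C4-2BER, between 93905 and 98355 bp downstream of the start site, and each overlapped an H3K18ac region found in C4-2BER only. The NOTCH2 intron sequence above is the center of the strongest of them. The region over exons 6 and 7 had an H3K27ac fold of 3.40 in C4-2BER with no peak in C4-2B, while its H3K18ac folds were 3.81 and 3.24. The region at 201295 to 202078 bp, beyond the end of the gene, was strong and equal in H3K27ac, 11.2 and 11.0. Peaks were missing in both lines from the 90.0 kb between intron 5 and the promoter and from the stretch upstream of the promoter. In those stretches 81.9% and 82.2% of all sequences of 31 bases occur again elsewhere on chromosome 1, against 6.32% in the rest of the window. The authors kept alignments with a mapping quality of at least 10, so acetylation there cannot be judged. With only peaks of a fold of at least 4 kept, 1 of 3 H3K27ac regions of the window was increased.

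NOTCH3, the receptor of vascular smooth muscle, lies at chr19:15159038-15200995 on the minus strand (ENSG00000074181.9). Its promoter values were 13.2 in C4-2BER against 17.0 in C4-2B for H3K27ac and 7.78 and 8.26 for H3K18ac (log2 -0.36 and -0.09). In the full lists the marks differed in which line had more length. H3K27ac peaks covered 31340 bp of the window in C4-2BER against 22017 bp in C4-2B, and the joined promoter region held 1 peak of 7629 bp in C4-2BER against peaks of 2841 and 2096 bp in C4-2B. H3K18ac peaks covered 38933 and 53412 bp, and the promoter region held peaks of 3586 and 4292 bp in C4-2BER against 1 of 8028 bp in C4-2B. With a fold of at least 4 the H3K18ac length was larger in C4-2BER, 24404 against 19363 bp, and with a −log10 q-value of 5 or more it was 28806 against 19363 bp. Of 32 H3K18ac regions 18 were decreased and 2 increased, where 11.6 decreased would follow from GC content. All 18 had a peak in C4-2B only, with folds from 2.24 to 2.80, and 2 of them lay downstream of the gene. Of 11 H3K27ac regions 3 were increased and 3 decreased, where 2.63 and 3.2 would follow from GC content. The 2 strongest regions with a peak in C4-2BER only lay downstream of NOTCH3, with folds of 4.71 and 4.58, at 64743 to 65869 and 63187 to 63705 bp from its start site. The second overlapped an H3K18ac region in C4-2BER only with a fold of 3.36.

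NOTCH4, the receptor of blood vessel endothelium, lies at chr6:32194843-32224067 on the minus strand (ENSG00000204301.6). No H3K27ac peak lay at its canonical start site in either line, and the H3K18ac peaks there were weak, 2.50 in C4-2BER against 2.79 in C4-2B. The promoter values of 14.6 and 18.7 for H3K27ac and 5.99 and 6.11 for H3K18ac came from an alternative start site 27090 bp downstream, where the same peaks cover the promoter of GPSM3. They cannot be assigned to NOTCH4. The H3K27ac log2 ratio was -0.35 and became 0.01 after rescaling. H3K18ac covered 27608 bp of the window in C4-2BER against 37010 bp in C4-2B, with 7 of 20 regions decreased and 0 increased, where 6.54 and 3.43 would follow from GC content. The H3K27ac lengths were 20536 and 17890 bp.

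JAG1, a ligand of several Notch receptors that is itself a known Notch target in some tissues, lies at chr20:10637684-10673999 on the minus strand (ENSG00000101384.12). Its H3K27ac promoter value was 13.8 in C4-2BER against 28.8 in C4-2B. The log2 ratio of -1.06 was the lowest of the 10 genes, with 6.15% of all genes lower. After rescaling it was -0.66, short of a ratio of 2. The H3K18ac value was 8.19 in C4-2BER against 14.0 in C4-2B (log2 -0.78, and -0.78 after rescaling), with 7.6% of genes lower. In C4-2B the JAG1 peaks exceeded 97.7% of H3K27ac and 99.8% of H3K18ac peaks, and in C4-2BER 92.8% and 99.0%. The peak widths at the promoter were alike for H3K27ac, 3805 and 3718 bp. The peak also covers the promoter of the lncRNA gene ENSG00000270792.
Of 6 H3K27ac regions in the JAG1 window, the promoter included, 4 were decreased and 0 increased, where 1.44 decreased would follow from GC content. A region in intron 3 had a fold of 4.13 in C4-2B and no peak in C4-2BER, and its H3K18ac folds were 2.91 in C4-2BER against 4.87 in C4-2B. The upstream region, whose sequence is given above, lay 12499 to 12793 bp before the start site and had a peak in C4-2B only in both marks, with folds of 2.42 for H3K27ac and 3.61 for H3K18ac. The H3K18ac value was the highest of all member regions found in C4-2B only. One region in intron 2 was higher in C4-2BER for H3K27ac, 3.92 against 2.92. Of 15 H3K18ac regions 6 were decreased and 1 increased, where 3.57 and 3.96 would follow from GC content. H3K27ac covered 5646 bp in C4-2BER against 8852 bp in C4-2B, and 95.5% of genes had a higher ratio. With a fold of at least 4 the lengths were 3805 and 4624 bp, and with a −log10 q-value of 5 or more 5087 and 5267 bp.

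JAG2, the second Jagged ligand, lies at chr14:105140982-105168824 on the minus strand (ENSG00000184916.9). Its promoter values were the closest of the 10 genes for H3K27ac, 14.4 in C4-2BER against 15.0 in C4-2B. For H3K18ac JAG2 was the only gene with a higher value in C4-2BER, 6.99 against 5.48 (log2 0.35), above 97.2% of genes. The H3K18ac peak was 13195 bp wide in C4-2BER against 37323 bp in C4-2B, and over the whole joined region the H3K18ac folds were equal, 4.80 and 4.80. The part of peak width in the promoter value was not tested. In the window, 6 of 16 H3K27ac regions were increased and 4 decreased, where 2.41 and 6.18 would follow from GC content. The strongest increased one lay 48216 to 51056 bp downstream of the start site, with H3K27ac folds of 9.51 in C4-2BER against 3.88 in C4-2B. Its H3K18ac folds were 3.98 and 3.54. None of the 10 H3K18ac regions was increased and 3 were decreased, where 1.49 and 3.39 would follow from GC content. The length under H3K18ac peaks was 67783 bp in C4-2BER against 90883 bp in C4-2B.

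DLL1, the Delta-like ligand of lateral inhibition in neural precursors, lies at chr6:170282206-170306565 on the minus strand (ENSG00000198719.9). Its highest promoter values, 17.7 in C4-2BER against 27.6 in C4-2B for H3K27ac and 6.08 and 9.91 for H3K18ac, lay at a start site 15487 bp upstream of the canonical one, under a peak that also covers a promoter of FAM120B. At the canonical start site the H3K27ac values were 10.7 and 9.47, and those of H3K18ac were 6.06 and 6.26. The joined regions of both marks over this site also reach a promoter of FAM120B. The log2 ratio of DLL1 for H3K27ac was thus -0.64 with all start sites and 0.17 at the canonical one, so its direction depended on the start site. Of 12 H3K27ac regions 3 were increased and 1 decreased, where 3.29 and 3.17 would follow from GC content. The length under peaks was 18823 bp in C4-2BER against 12475 bp in C4-2B for H3K27ac, and 26410 and 43709 bp for H3K18ac. Upstream, beyond 53 kb, 2 regions had a peak of both marks in C4-2BER only, with H3K27ac folds of 2.78 and 2.30.

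DLL4, the ligand of endothelial tip cells, lies at chr15:40929340-40939073 on the plus strand (ENSG00000128917.8). With all start sites counted, its H3K27ac promoter value was the lowest of the 10 genes, 3.02 in C4-2BER against 3.77 in C4-2B. Of all promoters, 6.67% and 9.48% were weaker. NOTCH4, which had no H3K27ac peak at its canonical start site, ranked above DLL4 only through its alternative start site. The H3K18ac values of DLL4 were 4.55 and 4.99. Log2 ratios were -0.32 and -0.13. The window was dense with peaks of neighbors, and the strong H3K27ac peaks lay over VPS18 and CHAC1. Those over VPS18 had folds of 10.6 in C4-2BER against 20.5 in C4-2B, in peaks 6746 and 2333 bp wide. Those over CHAC1 had 10.1 in C4-2BER (6279 bp) against 23.6 in C4-2B (1952 bp). Over the whole joined CHAC1 region, with 2 peaks in C4-2B, the folds were 10.1 and 10.8 (log2 -0.09). Of 15 H3K27ac regions 4 were increased and 1 decreased, where 3.52 and 4.25 would follow from GC content. Lengths under peaks were close in both marks, 35246 and 31787 bp for H3K27ac and 58610 and 61621 bp for H3K18ac.

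HES1, the repressor that is the most general Notch target, lies at chr3:194136148-194138732 on the plus strand (ENSG00000114315.4). Its H3K27ac promoter value was 16.1 in C4-2BER against 24.3 in C4-2B (log2 -0.59), with 40.3% of genes lower. Its H3K18ac value was 6.02 in C4-2BER against 11.4 in C4-2B (log2 -0.92), with 3.13% of genes lower. The H3K18ac peak at the start site was 23134 bp wide in C4-2BER against 4734 bp in C4-2B, where neighboring peaks were separate. Averaged over the whole joined region, the H3K18ac folds were 6.02 and 6.87. The part of peak width in the promoter contrast was not tested. Around the gene the acetylated length was larger in C4-2BER, 34084 against 27489 bp for H3K27ac and 70146 against 50056 bp for H3K18ac, the latter above 75.9% of genes. Of 17 H3K18ac regions 4 were increased and 0 decreased, where 6.06 and 2.39 would follow from GC content. Of 11 H3K27ac regions 3 were increased and 2 decreased, where 3.92 and 1.99 would follow from GC content. The HES1 downstream region, shown above, lay 30461 to 31098 bp past the start site and had H3K27ac folds of 4.30 in C4-2BER against 1.95 in C4-2B and an H3K18ac peak in C4-2BER only, with a fold of 3.23. A region 37408 to 40810 bp upstream was higher in C4-2BER for H3K27ac, 10.5 against 7.02, without reaching a ratio of 2.

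HEY1, a related repressor that acts in heart and vessel development, lies at chr8:79762371-79767857 on the minus strand (ENSG00000164683.19). Its promoter values were 17.7 in C4-2BER against 22.8 in C4-2B for H3K27ac (log2 -0.36, and 0.04 after rescaling) and 7.63 and 8.53 for H3K18ac (log2 -0.16). The peak also covers a promoter of LINC01607. Upstream, 2 H3K27ac regions had a peak in C4-2BER only, with folds of 3.85 at 30878 to 33312 bp and 2.45 at 19792 to 20075 bp before the start site. Both overlapped H3K18ac regions present in both lines, with folds of 3.80 and 3.30 at the first. H3K27ac covered 6540 bp of the window in C4-2BER against 2982 bp in C4-2B. H3K18ac covered 20383 and 8579 bp, a ratio of 2.38 that was above 95.3% of genes, with 7 of 18 regions increased and 3 decreased, where 4.98 and 3.92 would follow from GC content. With a fold of at least 4 the order of the H3K18ac lengths turned, 3055 and 3673 bp. The increased H3K18ac regions were weak, with folds from 2.02 to 2.75.

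**Figure D4:**
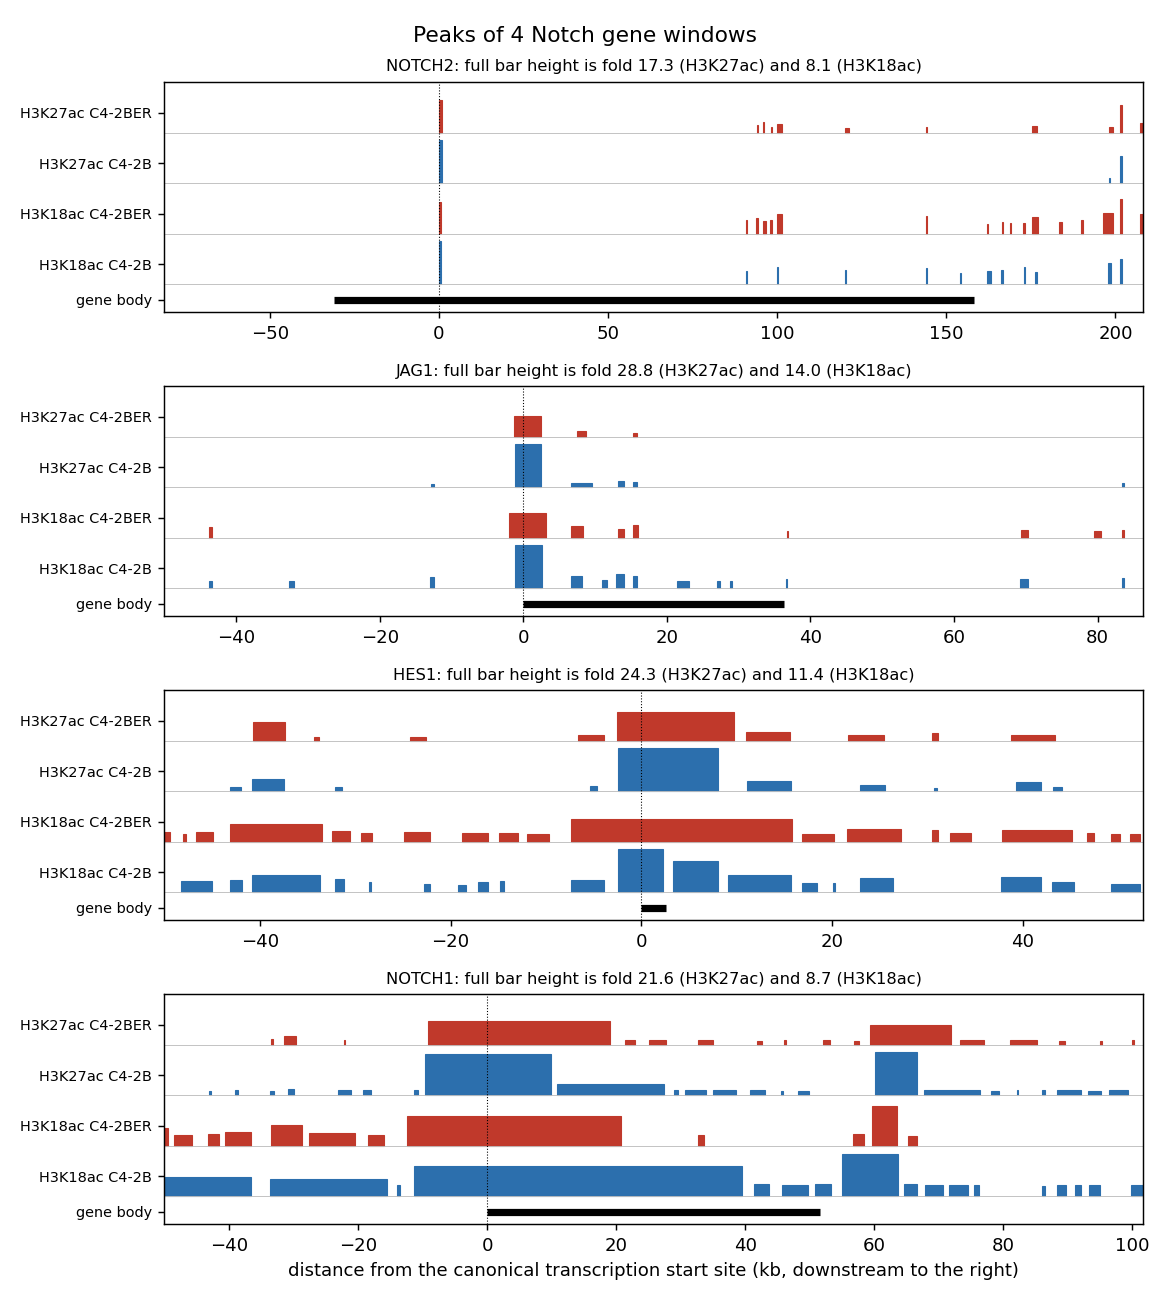
Peaks of the NOTCH2, JAG1, HES1 and NOTCH1 windows by distance from the canonical start site (kb, x axis), with 1 row per mark and line, bar width as peak width and bar height as fold enrichment scaled to the highest peak of that mark in the window. NOTCH2 shows a group of C4-2BER peaks about 100 kb into the gene, JAG1 a taller promoter peak in C4-2B (28.8 against 13.8 for H3K27ac), HES1 a wide H3K18ac peak in C4-2BER, and NOTCH1 more H3K18ac length in C4-2B.

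The pathway was completed with 44 further genes in 8 roles, from enzymes that sugar-coat the receptors to other HES and HEY genes. Of these, 42 had an H3K27ac promoter peak, 2 were increased (4.76%) and 5 decreased (11.9%), close to the 4.56% and 10.8% of all genes. All 44 had an H3K18ac promoter peak, 1 was increased (2.27%) and 3 were decreased (6.82%), against 2.15% and 5.9%. The median log2 ratios were -0.48 and -0.41, against -0.50 and -0.33 over all genes. H3K27ac was lower in C4-2BER at 36 of 39 promoters with a peak in both lines (92.3%, against 87.8% of all genes). The genes of receptor cleavage, among them the proteases that release the intracellular part, were lower at 8 of 8 promoters in both marks, with medians of -0.55 and -0.47, and none reached a ratio of 2. Over all genes 87.8% and 84.9% of promoters were lower. Decreased H3K27ac promoters included those of SNW1, a coactivator of the nuclear complex (10.8 in C4-2BER against 27.04 in C4-2B, log2 -1.32), POGLUT1, which adds glucose to the receptors (9.84 and 23.3, log2 -1.25), NUMB, an inhibitor of Notch (12.9 and 28.1, log2 -1.13), and DTX2, a ubiquitin ligase with a peak in C4-2B only (fold 6.02). NEURL1B, a ubiquitin ligase of the ligands, was decreased in H3K18ac (4.65 and 9.97, log2 -1.10), as was DTX2. The other called genes, named after their values were seen, had weak peaks in 1 line. MAML2, a coactivator of the nuclear complex, had peaks in C4-2BER only, with folds of 2.45 for H3K27ac and 2.60 for H3K18ac. DTX1 had an H3K27ac peak of 2.11 in C4-2BER only, and HEYL an H3K18ac peak of 3.07 in C4-2B only. After rescaling, 1 H3K27ac promoter of the 44 genes was decreased, against 4.71% of all genes with a promoter peak.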

How the data were processed

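H3K27ac and H3K18ac ChIP-seq was analyzed from 8 ChIP libraries and 2 inputs. The authors aligned reads to GRCh38 with bowtie2 (version 2.2.3 in the submitters' processing notes), removed blacklisted, duplicate and low-quality alignments, merged replicates and called broad peaks with macs2. The 4 deposited lists give each peak a fold enrichment (a ratio to local background) and a significance as −log10 q-value. Peaks on 24 chromosomes were kept, and 0 ran past a chromosome end of the reference. Peaks of both lines were joined at 1 base of overlap. The rescaling subtracted a robust line, fitted over 20 bins, of the log2 ratio on mean log2 fold. GC content and motifs came from GRCh38 and RefSeq promoters (GRCh38.p14), and gene models from GENCODE release 44. No test was made because each list pools 2 libraries. The code was checked on simulated peaks without noise, with planted changes beyond the cutoff and unchanged regions short of it. There, 400 of 400 planted increases and 400 of 400 decreases were recovered, with 0 calls among 5200 unchanged regions. This outcome was set by the design and gives no error rate for the real lists. The genes, the 44 pathway genes and the 16 marker genes were chosen with earlier results of these data known. All 10 Notch genes were named. Of the pathway genes, up to 6 called ones were named by log2 ratio or fold. Other genes were named where their start site lay under a described peak. Results for some genes are not reported here. Python 3.11.15, numpy 2.4.6, pandas 2.3.3 and matplotlib 3.10.9 were used.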

Additional observations from a re-analysis of the deposited data

How the results depend on the processing

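Of 74 checks on the counts and medians over the 10 genes, 50 stayed within 1.5 times the value or within the tolerance and 24 moved. Each count or median was checked alone, so a turned order between counts was not scored. With rescaling, H3K27ac promoters decreased went from 1 to 0, and over all genes their share went from 10.8% to 4.71%. The median log2 ratio of the H3K27ac promoters of the 10 genes went from -0.38 to -0.13. With a ratio of at least 1.5, 4 H3K27ac and 3 H3K18ac promoters were decreased, where 41.6% and 23.7% of all genes were. Region counts moved with the window and the joining of peaks. Increased and decreased H3K27ac regions (35 and 28) became 17 and 13 with 20 kb to each side, 65 and 62 when peaks were paired at an overlap of at least 50%, 9 and 9 with a fold of at least 4, and 16 and 6 once the −log10 q-value had to reach 5, and 56 were increased with 100 kb. The H3K18ac counts (25 and 55) became 8 and 30, 102 and 126, 3 and 8, and 9 and 2 in the same order, and 44 and 84 with 100 kb. The genome's shares of increased and decreased regions do not depend on the flank. Paired at 50% overlap, they were 38.4% and 34.8% for H3K27ac and 37.4% and 37.7% for H3K18ac. With a fold of at least 4 they were 19.9% and 19.3% for H3K27ac and 19.1% and 24.2% for H3K18ac. At the stricter q-value they were 28.4% and 14.9% for H3K27ac. The excess of decreased over increased H3K18ac regions thus turned at the stricter q-value. The genome's H3K18ac shares moved in the same direction, from 26.2% increased and 23.5% decreased to 34.2% and 12.7%. The turn is thus not shown to be particular to the Notch windows. At that setting 7 of 10 windows were longer in C4-2BER in H3K18ac instead of 3. The share of such windows over all genes was not computed there. The cause of the turn was not tested. Leaving out regions at other genes' promoters was chosen after seeing the data. No paired analysis was possible because the deposited lists pool the replicates, and for the same reason no replicate could be left out. Depth is unknown, so calls that rest on weak peaks in 1 line are the least certain.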

Other observations

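Other motifs were searched in the 8 promoter and 12 region sequences that were read, on both strands. CACGTG, the E-box bound by HES and HEY factors, was in none. CAGCTG, the E-box of proneural factors, was in 1 NOTCH1 region and in both decreased NOTCH3 regions that were read. AGAACA, a half-site of the androgen receptor, was in 1 NOTCH1 region. Of all promoters, 7.26%, 17.9% and 14.8% held these motifs, and of H3K27ac region centers 4.89%, 17.9% and 16.4%. Regions at annotated promoters, among them a decreased NOTCH3 region at ILVBL, and those of DLL1 and HEY1 were not read. A region upstream of NOTCH3 at chr19:15228032-15228331, decreased in both marks, held 2 RBPJ cores.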
